A study of Mus musculus with 12 samples.

Results

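Loss of Nkx2-5 was examined in mouse hearts that already lacked Tbx5, by setting the 3 arrays of hearts without both genes (labelled Tbx5 KO;Nkx2-5 KO, called double KO here) against the 3 arrays of hearts without Tbx5 alone (Tbx5 KO). These are 6 of the 12 Affymetrix arrays of the study. The other 6 arrays, 3 of Nkx2-5 KO and 3 of wild-type (WT) hearts, give the loss of Nkx2-5 with Tbx5 still present. They also enter the fit from which the spread between replicates was estimated. All hearts were dissected at embryonic stage E8.75, and the arrays of a group carry numbers of biological replicates in their titles. Not given in the labels are the deleted exons, whether the KO alleles were constitutive or driven by a Cre, the strain, and how many hearts went into an array. Every probe set with exactly 1 gene symbol was used, with 1 probe set for each gene. Of 19938 genes tested, 19187 are reported, because X- and Y-linked genes were left out of the counts and of the genes named.

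Nkx2-5 is a homeodomain transcription factor and Tbx5 a T-box transcription factor. They bind each other and many of the same cardiac enhancers, and both are needed for the heart tube to form chambers. Tbx5 acts mainly in the inflow part, the atria and the left ventricle, whereas Nkx2-5 is made in all heart muscle, where it sustains chamber genes and restrains the pacemaker program. The comparison addresses which genes depend on Nkx2-5 when its partner is already absent.

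Values are the deposited log2 expression values, so a difference of 1 is a doubling on the log2 scale. Changes are double KO minus Tbx5 KO, followed by ± the standard error from a limma fit over all 12 arrays with n = 3 per group. A gene was called at a limma p under 0.05 after Benjamini-Hochberg adjustment across the 19938 genes. Array medians lay between 8.05 and 8.25. Pearson correlations across probe sets were 0.969 to 0.984 within groups and 0.962 to 0.975 between double KO and Tbx5 KO arrays. Of 751 X- or Y-linked genes, 99 were called (13.2%), and 3 of 9 Y-linked genes were called higher and 0 lower. The sex of the embryos and the genotype therefore cannot be told apart in this comparison. Since whole hearts were measured, fewer cells of a type and less RNA per cell cannot be told apart either.

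Double KO hearts had lower levels than Tbx5 KO hearts of many cell cycle genes, of Nppa and other muscle genes, and of the ligand genes Angpt1, Rspo3 and Wnt2. The pacemaker channel gene Hcn4 and 11 immediate early genes were higher. In all, 2040 of the 19187 genes were called (10.6%). Of them 543 were higher (2.83%) and 1497 lower (7.8%) in double KO hearts, and 347 differed by at least 1 log2 unit (59 higher, 288 lower). With only the 6 arrays compared in the fit, 1420 genes were called, 331 of them higher. The total was 1233 without double KO replicate 2 and 1297 without Tbx5 KO replicate 1. The values of the 3 double KO arrays lay wholly outside those of the 3 Tbx5 KO arrays for 2012 of the called genes, and for 5551 of all genes.

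The balance between rises and falls depended on the scaling. After the arrays were quantile normalized again, 969 genes were higher and 1162 lower, so that 45.5% of the calls were higher, against 26.6% with the values as deposited. The falls lay mostly among bright genes. When genes were ranked by mean level into 4 equal groups, the brightest group had 223 higher, 993 lower and a median change of -0.13, whereas the dimmest had 50 higher, 30 lower and a median of 0.08. The spread of values across probe sets (SD) was 2.09, 2.05 and 2.10 for double KO arrays, against 2.13, 2.13 and 2.16 for Tbx5 KO arrays. The median change of all genes was 0.05. The shares of all genes called, 7.8% lower and 2.83% higher, are the background for the counts in each gene list. They take no account of brightness, and in the brightest group 993 of 4797 genes were lower and 223 higher. The cardiac transcription factor, sarcomere and heat shock lists, among others, had mean levels within the range of that group (9.63 to 14.3). Their shares of falls were not tested against genes of like level.

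The Nkx2-5 probe set read 9.05, 9.21 and 8.97 on the double KO arrays, against 9.38, 9.31 and 9.36 on the Tbx5 KO arrays. The double KO values were all lower, but the difference of -0.27 ± 0.11 was not called (limma adjusted p = 0.134). In Nkx2-5 KO hearts it was called lower than in WT hearts (-0.41 ± 0.11, limma adjusted p = 0.0499). For Tbx5, which both groups lack, the double KO arrays read 10.31, 10.65 and 10.83. The Tbx5 KO arrays overlapped them, at 10.73, 10.42 and 10.45. These Tbx5 KO values lay above the WT ones of 10.15, 10.13 and 9.90, a difference of 0.47 ± 0.15 that was not called (limma adjusted p = 0.127). Because the probed bases may lie outside the deletions, neither probe set checks the genotypes.

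Cardiomyocyte identity genes stayed among the brightest of the array. Troponin T gene Tnnt2 read 14.25, 14.30 and 14.26 on double KO arrays, against 14.26, 14.19 and 14.21 on Tbx5 KO arrays, and the atrial light chain gene Myl7 read 13.86, 13.91 and 13.82 on double KO arrays, against 13.90, 13.82 and 13.85 on Tbx5 KO arrays. Both sets overlapped and neither gene was called. Actc1, Ttn and Myh7, the other sarcomere genes used as markers, were not called either, whereas Myh6 and Actn2 fell.

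In the list for chamber and trabecular myocardium, 5 of 27 measured genes fell (18.5%, beside 7.8% of all genes) and 4 rose (14.8%, beside 2.83%), with a median change of -0.20 beside 0.05 for all genes. The 4 became 2 without Tbx5 KO replicate 1 or 2 or double KO replicate 2. Nppa encodes atrial natriuretic peptide and is a direct target of both factors in the embryonic heart. It read 8.01, 8.37 and 8.02 in double KO hearts, against 10.45, 10.09 and 9.63 in Tbx5 KO hearts. All 3 double KO values lay more than 1 log2 unit under the lowest Tbx5 KO value. The gene fell by 1.93 ± 0.26 (3.80-fold, limma adjusted p = 0.000589). The WT values of 13.29, 13.52 and 13.29 lay above both groups.

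Nppb, the neighbouring gene of B-type natriuretic peptide, read 9.16, 9.79 and 9.07 on the double KO arrays, against 10.08, 9.78 and 8.99 on the Tbx5 KO arrays. These values overlapped, and the change of -0.28 ± 0.26 was not called (limma adjusted p = 0.552). With Tbx5 present, Nppb fell by 2.80 ± 0.26 in Nkx2-5 KO hearts relative to WT (limma adjusted p = 0.00023). The 2 changes differed (non-additive term 2.52 ± 0.37, limma adjusted p = 0.00923).

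**Figure D1:**
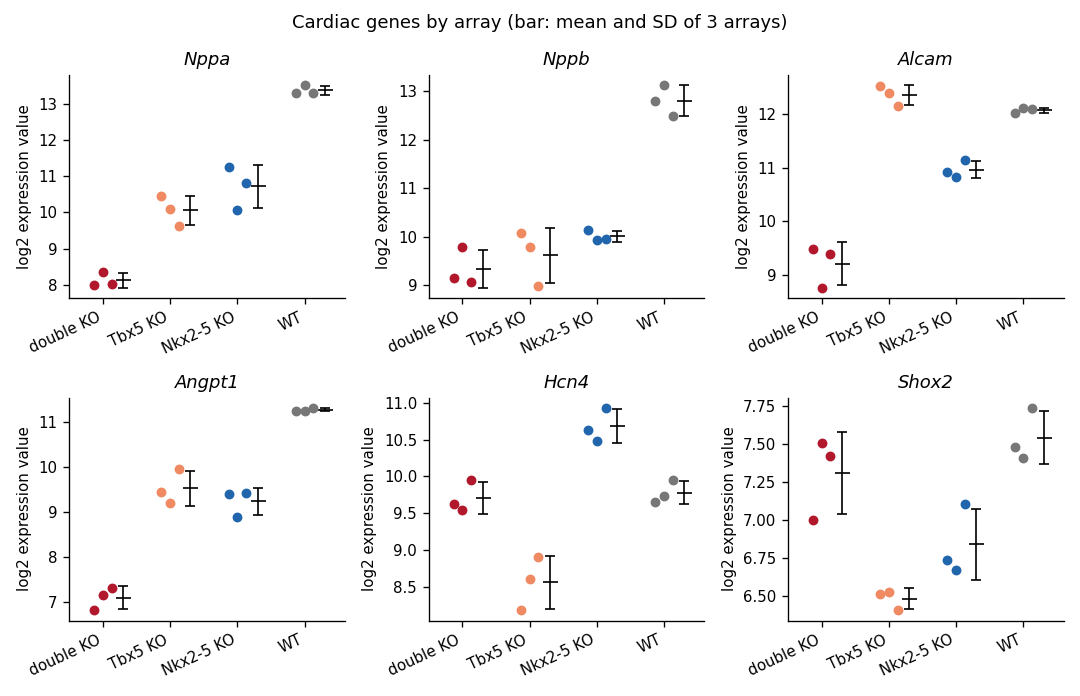
Deposited log2 expression values of 6 cardiac genes on each of the 12 arrays, with the mean and SD of each group of 3 beside the points. Nppa, Alcam and Angpt1 were lower on every double KO array than on any Tbx5 KO array, Nppb overlapped between these groups, and Hcn4 and Shox2 were higher on every double KO array.

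Promoter windows are shown for Nppa, Wnt2 and Hcn4, which are cardiac genes with a large change that the RefSeq promoter table holds. They are a selection, since Sema3c, Prdm1 and Wnt5a changed by more than Hcn4 and are not shown. Nppb is added as the neighbour of Nppa whose change was not called. Nppb was chosen after its values were seen. Each window runs 5′ to 3′ from 250 bases before to 50 bases after the gene's start (RefSeq, GRCm38.p6), and 15008 of the 19187 genes matched the table. Capitals mark the core of the NKX2-5 site, AAGTG or its reverse complement CACTT, and the core of the T-box site, GGTGT or its reverse complement ACACC. The windows are chr4:148000472-148000771 on the plus strand for Nppa, chr4:147985650-147985949 on the plus strand for Nppb, chr9:58822699-58822998 on the plus strand for Hcn4 and chr6:18030396-18030695 on the minus strand for Wnt2.
Nppa: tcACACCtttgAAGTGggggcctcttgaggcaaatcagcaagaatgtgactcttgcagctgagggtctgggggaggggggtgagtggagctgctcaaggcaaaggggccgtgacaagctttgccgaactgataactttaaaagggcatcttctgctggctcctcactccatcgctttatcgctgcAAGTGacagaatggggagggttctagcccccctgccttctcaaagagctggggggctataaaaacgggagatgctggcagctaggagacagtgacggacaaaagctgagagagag
Nppb: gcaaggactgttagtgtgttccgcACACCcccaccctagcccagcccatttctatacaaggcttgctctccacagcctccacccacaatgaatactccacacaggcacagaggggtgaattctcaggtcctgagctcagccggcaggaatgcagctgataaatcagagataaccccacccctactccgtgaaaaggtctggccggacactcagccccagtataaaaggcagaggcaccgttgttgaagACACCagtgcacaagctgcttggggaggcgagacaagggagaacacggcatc
Hcn4: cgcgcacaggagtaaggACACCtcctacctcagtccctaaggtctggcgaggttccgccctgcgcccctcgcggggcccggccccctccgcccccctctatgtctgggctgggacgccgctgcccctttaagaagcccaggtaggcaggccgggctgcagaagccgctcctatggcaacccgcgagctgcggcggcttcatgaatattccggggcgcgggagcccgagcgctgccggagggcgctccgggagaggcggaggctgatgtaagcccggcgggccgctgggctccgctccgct
Wnt2: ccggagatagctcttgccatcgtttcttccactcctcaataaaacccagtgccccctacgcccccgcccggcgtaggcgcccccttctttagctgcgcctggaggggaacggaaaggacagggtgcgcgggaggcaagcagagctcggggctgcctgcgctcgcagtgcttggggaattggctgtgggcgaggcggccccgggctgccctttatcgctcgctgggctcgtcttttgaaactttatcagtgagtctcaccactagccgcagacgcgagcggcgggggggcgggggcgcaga
The Nppa window holds AAGTG at 239 and at 65 bases before the start and ACACC at 248 bases before it. The Nppb window holds 0 NKX2-5 cores and 2 T-box cores, at 226 and 2 bases before the start, the Hcn4 window 1 T-box core at 233 bases before it, and the Wnt2 window neither core.

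Such short letters are common. Over all 18441 promoter windows, 44.4% hold the NKX2-5 core, 40.5% the T-box core and 18.1% both. The shares were 42.5%, 38.2% and 15.4% in windows of genes called lower, and 39.1%, 40.7% and 14.9% in windows of genes called higher. A match is a description of letters and not a bound site, and enhancers farther away were not read.

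Other chamber genes that fell were Hand1, Lrrc10, Irx4 and Myl2. Hand1, a basic helix-loop-helix factor of the outer curvature and left ventricle that also acts in trophoblast, read 9.15, 9.12 and 9.26 in double KO hearts, against 10.67, 10.35 and 10.56 in Tbx5 KO hearts. It fell by 1.36 ± 0.13 (limma adjusted p = 7.68e-05), to values close to the WT ones of 9.44, 9.04 and 9.56. The placental genes Prl3d3 and Prl8a2 were high on the same Tbx5 KO arrays, and the part of placental tissue in the Hand1 change was not tested. Lrrc10, which encodes a leucine-rich repeat protein of heart muscle, fell by 0.96 ± 0.17, and Irx4, a homeodomain factor of the ventricle, by 0.85 ± 0.17. Myl2, the ventricular light chain, read 13.02, 13.09 and 12.85 in double KO hearts, against 13.80, 13.76 and 13.66 in Tbx5 KO hearts, and fell by 0.75 ± 0.09 (limma adjusted p = 0.000273).

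The chamber genes that rose were Itga6, a laminin receptor subunit (0.99 ± 0.17), Slit2, a secreted guidance ligand (0.91 ± 0.19), Nrg1, a growth factor of endocardium (0.47 ± 0.12), and Cited2, a transcriptional cofactor named after its values were seen (0.33 ± 0.10). The Nrg1 call was lost under 6 of 14 alternatives, among them the omission of double KO replicate 1 or 2 or Tbx5 KO replicate 1 or 2 (adjusted p up to 0.112). Other cardiac genes were not called. Bmp10, the growth factor of the trabecular layer, read 7.39, 7.21 and 6.92 on double KO arrays, against 7.38, 7.17 and 7.46 on Tbx5 KO arrays, while the WT arrays read 10.16, 10.86 and 10.20. Its change was -0.17 ± 0.21 (limma adjusted p = 0.676). Gja5, the connexin 40 gene, was -0.42 ± 0.36 with overlapping values, and Pln, the phospholamban gene, was -0.75 ± 0.27 (limma adjusted p = 0.102). Vsnl1, a calcium sensor gene of the inflow muscle, was 0.48 ± 0.19 (limma adjusted p = 0.127), at 7.83, 7.67 and 7.62 in double KO hearts against 7.33, 7.50 and 6.84 in Tbx5 KO hearts.

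Among 29 cardiac transcription factor genes, 5 fell (17.2%, beside 7.8% of all genes) and 0 rose, with a median change of 0.03. Besides Hand1 and Irx4 these were Zfpm2, a GATA cofactor, by 0.94 ± 0.18, Smyd1, a muscle methyltransferase, by 0.87 ± 0.15, and Hand2, the sister factor of Hand1, by 0.35 ± 0.10. The Hand2 call (limma adjusted p = 0.039) was lost under 7 of 14 alternatives (adjusted p up to 0.143). These were quantile normalization again, an intensity trend, only the 6 arrays compared, and the omission of double KO replicate 1 or 2 or Tbx5 KO replicate 2 or 3. Gata4 (0.12 ± 0.13) and Tbx20 (-0.30 ± 0.14) were not called. Isl1, a factor of the second heart field and sinus node, was 0.96 ± 0.31 (limma adjusted p = 0.0659), at 10.65, 10.80 and 11.79 in double KO hearts against 9.54, 10.50 and 10.33 in Tbx5 KO hearts. Its values did not overlap. It was called under 3 of 14 alternatives, which were quantile normalization again, array weights, and the omission of double KO replicate 1, the lowest of its group.

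Of 39 sarcomere genes, 7 fell (17.9%, beside 7.8% of all genes) and 2 rose (5.13%, beside 2.83%), with a median change of -0.04. The mean level of the list lay in the range of the brightest genes, of which 993 of 4797 fell. Myh6, the alpha myosin heavy chain and a contractile gene of the atria, read 12.05, 12.11 and 11.84 in double KO hearts, against 12.75, 12.62 and 12.73 in Tbx5 KO hearts. It fell by 0.70 ± 0.14 (limma adjusted p = 0.0065). Xirp1, which binds actin at intercalated discs, fell by 0.79 ± 0.08 and Csrp3, a Z-disc LIM protein, by 0.72 ± 0.11. Lmod2, a thin filament nucleator, fell by 0.74 ± 0.18, a call that was lost after quantile normalization again, with only the 6 arrays compared, and without double KO replicate 3 or Tbx5 KO replicate 2 (adjusted p up to 0.0845). Myom2, an M-band protein, was among the 2 that rose (0.76 ± 0.14).

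Of 18 calcium handling genes 2 fell (11.1%, near the 7.8% of all genes) and 2 rose (11.1%, beside 2.83%). Under the alternatives tried 1 to 3 fell and 0 to 3 rose. Casq1, a calcium store protein of the sarcoplasmic reticulum best known from skeletal muscle, read 12.32, 12.06 and 12.44 in double KO hearts, against 13.41, 13.26 and 13.32 in Tbx5 KO hearts, and fell by 1.06 ± 0.12 (limma adjusted p = 0.000231). Casq2, its cardiac relative, was at -0.05 ± 0.16 and overlapped between these groups. Calr, a calcium store protein of the endoplasmic reticulum, fell by 0.52 ± 0.12, and Stim1, a calcium store sensor, rose by 0.51 ± 0.14. The Calr call was lost with only the 6 arrays compared and without double KO replicate 2 or Tbx5 KO replicate 1 or 3 (adjusted p up to 0.0655). That of Stim1 was lost under 7 of 14 alternatives, among them the omission of double KO replicate 2 or 3 or Tbx5 KO replicate 1 or 2 (adjusted p up to 0.112).

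Conduction and ion channel genes numbered 25, of which 4 rose (16.0%, beside 2.83% of all genes) and 3 fell (12%, beside 7.8%). Without any 1 of the 6 arrays other than Tbx5 KO replicate 3, 1 or 2 rose. Hcn4, the pacemaker channel, was at 9.63, 9.55 and 9.96 in double KO hearts, against 8.18, 8.60 and 8.90 in Tbx5 KO hearts. Every double KO value was higher, and the gene rose by 1.15 ± 0.18 (limma adjusted p = 0.00153), to values near the WT ones of 9.65, 9.74 and 9.95. Cacna1d, a calcium channel of pacemaker and atrial cells, fell by 1.03 ± 0.17, Kcnj5, a potassium channel subunit of atrial muscle, by 0.87 ± 0.15, and Bves, a membrane protein of the Popeye family, by 0.87 ± 0.12. Cacna2d2, a calcium channel subunit, overlapped between these groups (-0.18 ± 0.15, limma adjusted p = 0.501).

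The atrioventricular canal and inflow tract list held some of the largest cardiac changes, with 4 of 22 genes lower (18.2%, beside 7.8% of all genes), 3 higher (13.6%, beside 2.83%) and a median change of 0.17. Angpt1, the ligand of the Tek receptor on endocardium that atrial muscle makes, read 6.82, 7.16 and 7.31 in double KO hearts, against 9.43, 9.19 and 9.94 in Tbx5 KO hearts. The groups lay far apart, and the gene fell by 2.43 ± 0.19 (5.37-fold, limma adjusted p = 2.83e-05). The receptor gene Tek was not called (-0.46 ± 0.23, limma adjusted p = 0.237).

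Shox2, a homeodomain factor that holds the sinus node program against Nkx2-5 in mouse, read 7.0, 7.50 and 7.42 in double KO hearts, against 6.52, 6.53 and 6.41 in Tbx5 KO hearts. It rose by 0.82 ± 0.15 (limma adjusted p = 0.00371). Shox2 was among the dimmest 25% of genes on these arrays, so it had no value where these were omitted. Nr2f1, an orphan nuclear receptor of atrial tissue, read 9.10, 8.82 and 8.70 in double KO hearts, against 7.91, 8.07 and 8.20 in Tbx5 KO hearts, and rose by 0.81 ± 0.16. Both remained under their WT means of 7.54 ± 0.17 for Shox2 and 9.45 ± 0.04 for Nr2f1 (SD, n = 3). Tbx3, a repressor of chamber genes in the conduction system, was 0.53 ± 0.16 (limma adjusted p = 0.0525) with overlapping values, and Tbx18, a sinus horn factor, was 0.03 ± 0.20. These last 2 were named after their values were seen.

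Of 30 measured genes of Wnt signalling, 8 fell (26.7%, beside 7.8% of all genes) and 1 rose, while the median change was 0.04. Between 5 and 8 of them were lower under the alternatives tried, the 5 without Tbx5 KO replicate 1. Wnt2, a ligand of the posterior pole and inflow tract in mouse, read 8.29, 8.04 and 7.50 in double KO hearts, against 9.83, 9.73 and 10.02 in Tbx5 KO hearts. It fell by 1.92 ± 0.19 (limma adjusted p = 0.000104). Rspo3, a secreted enhancer of Wnt signalling, read 8.96, 9.32 and 8.62 in double KO hearts, against 10.71, 11.26 and 11.10 in Tbx5 KO hearts, and fell by 2.06 ± 0.23 (limma adjusted p = 0.000204).

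Wnt5a, a ligand of the non-canonical branch made by second heart field cells, fell by 1.21 ± 0.13, and Lef1, the nuclear partner of beta-catenin and itself a Wnt target, by 1.21 ± 0.13. Wnt5a read 9.0, 9.04 and 9.36 in double KO hearts, against 10.36, 10.19 and 10.49 in Tbx5 KO hearts, and WT arrays read 8.99, 8.88 and 8.85. For Lef1 the values were 9.40, 9.54 and 9.71 in double KO hearts, against 10.70, 10.56 and 11.01 in Tbx5 KO hearts, and 9.36, 9.26 and 9.44 in WT hearts. Both genes were thus near WT values in double KO hearts and above them in Tbx5 KO hearts. Fzd2, a Wnt receptor, fell by 0.78 ± 0.12.

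In the BMP and TGF-beta list, 3 of 28 genes fell (10.7%, beside 7.8% of all genes) and 0 rose. Bmp5, a ligand of the looping heart tube, read 11.54, 11.40 and 11.43 in double KO hearts, against 12.59, 12.41 and 12.49 in Tbx5 KO hearts. It fell by 1.04 ± 0.09 (limma adjusted p = 3.37e-05). Id2, a BMP target and inhibitor of helix-loop-helix factors, fell by 0.75 ± 0.16. Among second heart field and progenitor genes, 3 of 25 fell (12%, beside 7.8% of all genes) and 1 rose, with 0 to 4 higher under the alternatives tried. Sema3c, a guidance ligand of the outflow tract, fell by 1.33 ± 0.26 (limma adjusted p = 0.00618).

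The cell cycle list held the largest share of called genes among the 32 lists. Of 40 measured genes, 31 fell (77.5%, beside 7.8% of all genes) and 1 rose, with a median change of -1.03. Under the alternatives tried between 27 and 33 fell, and 31 did without double KO replicate 3. The mean level of the list was 9.79, 9.87 and 10.41 on double KO arrays, against 10.90, 10.84 and 10.88 on Tbx5 KO arrays. Double KO replicate 3 stood nearest to the Tbx5 KO arrays, and the groups did not overlap.

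Genes of DNA replication and of mitosis were both among those that fell. Among those of DNA replication, Rrm2, the small subunit of ribonucleotide reductase, read 9.48, 9.15 and 10.46 in double KO hearts, against 11.53, 11.48 and 11.63 in Tbx5 KO hearts, and fell by 1.85 ± 0.25 (limma adjusted p = 0.000595). Pcna, the polymerase clamp, fell by 0.88 ± 0.11. E2f8, a transcriptional regulator of S phase, fell by 1.70 ± 0.26. Of the mitotic genes, Birc5, the survivin subunit of the chromosomal passenger complex, read 10.37, 10.74 and 10.90 in double KO hearts, against 12.53, 12.22 and 12.34 in Tbx5 KO hearts, and fell by 1.69 ± 0.13 (limma adjusted p = 2.51e-05). Kif11, a spindle motor, fell by 1.54 ± 0.16.

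Mki67, the proliferation marker, read 9.64, 9.77 and 10.85 in double KO hearts, against 11.39, 11.18 and 11.17 in Tbx5 KO hearts, and fell by 1.16 ± 0.24 (limma adjusted p = 0.00808). Cdk1, the mitotic kinase, fell by 1.31 ± 0.23. Smaller falls were those of the G1 genes Ccnd2 (0.46 ± 0.10 lower) and Cdk4 (0.44 ± 0.09 lower). Cdkn1c, the imprinted gene of the inhibitor p57, was the 1 member that rose, and Cdkn1b, the gene of the inhibitor p27, was -0.17 ± 0.14 (limma adjusted p = 0.475). Of these, Mki67, Pcna, Cdk1, Ccnd2, Cdk4 and Cdkn1b were named after their values were seen. Outside the list, the replication genes Dscc1, of a clamp loader for sister chromatid cohesion, and Fam111a, a protease that acts at replication forks, fell by 2.23 ± 0.19 and 2.21 ± 0.18.

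**Figure D2:**
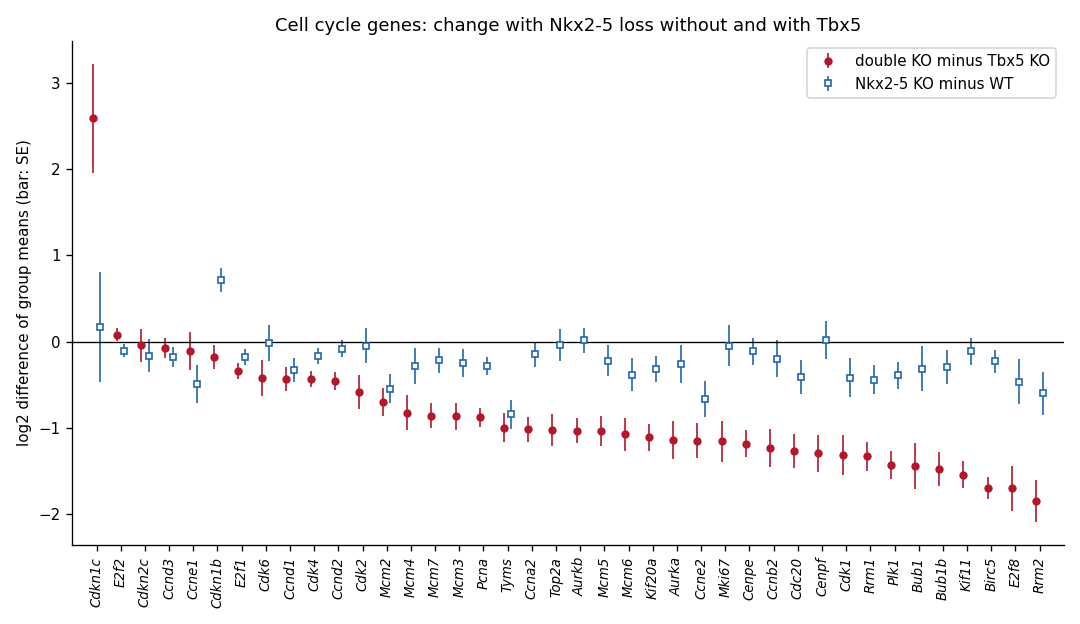
Log2 difference ± SE of the 40 cell cycle genes with Nkx2-5 loss, as double KO minus Tbx5 KO (filled circles) and Nkx2-5 KO minus WT (open squares), ordered by the first. The median was -1.03 in the first comparison and -0.23 in the second.

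With Tbx5 present, loss of Nkx2-5 left the same list with 1 gene lower and 1 higher and a median of -0.23 (Nkx2-5 KO minus WT, where 4.39% of all genes were called, 2.55% lower and 1.84% higher). The difference between the 2 changes was called for 3 of the 40 genes (0.433% of all genes had a lower term called), all with the larger fall in hearts without Tbx5. They were Birc5 (-1.46 ± 0.18), Kif11 (-1.43 ± 0.22) and Aurkb, a mitotic kinase named after its values were seen (-1.05 ± 0.20). For the other 37 the difference was not called.

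Immediate early genes are switched on within minutes of growth factor or stress signals and also by tissue handling. Of 28 measured, 11 were higher (39.3%, beside 2.83% of all genes) and 0 lower, with a median change of 0.39, and 9 to 14 were higher under the alternatives tried. Atf3, a stress-induced bZIP factor, read 11.43, 12.12 and 11.30 in double KO hearts, against 9.36, 9.40 and 9.53 in Tbx5 KO hearts, and rose by 2.19 ± 0.19 (limma adjusted p = 4.83e-05). Egr1, a zinc finger factor of the growth response, read 10.15, 10.90 and 10.34 in double KO hearts, against 8.61, 8.36 and 8.70 in Tbx5 KO hearts, and rose by 1.91 ± 0.26. Double KO replicate 2 was the highest array for both genes.

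Btg2, an antiproliferative p53 target, rose by 1.68 ± 0.17, Fosb, an AP-1 subunit, by 1.54 ± 0.25 and Ccn1, a secreted matrix protein, by 1.38 ± 0.17. Its relative Ccn2, a target of YAP and TGF-beta signals, read 10.57, 10.95 and 11.15 in double KO hearts, against 9.55, 9.71 and 9.34 in Tbx5 KO hearts, and rose by 1.36 ± 0.14. The list mean was 9.52, 9.89 and 9.66 on double KO arrays and 9.08, 9.02 and 9.08 on Tbx5 KO arrays. It was also 9.48, 9.77 and 9.60 on Nkx2-5 KO arrays, against 9.07, 9.23 and 9.12 on WT arrays, so the 6 arrays of hearts without Nkx2-5 lay above the 6 with it. A part of tissue handling was not tested.

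Of 40 genes of oxidative metabolism 15 fell (37.5%, beside 7.8% of all genes) and 2 rose, with a median of -0.26. Between 7 and 9 fell without Tbx5 KO replicate 1 or 3, without double KO replicate 2, with only the 6 arrays compared, or after quantile normalization again. Cox6a2, the muscle form of a cytochrome oxidase subunit, read 11.04, 10.25 and 9.95 in double KO hearts, against 12.01, 11.77 and 12.47 in Tbx5 KO hearts, and fell by 1.67 ± 0.29 (limma adjusted p = 0.00275). Lpl, lipoprotein lipase, fell by 1.25 ± 0.13, and the citric acid cycle genes Idh3a and Fh1 fell by 0.84 ± 0.11 and 0.77 ± 0.12. Cd36, a fatty acid carrier, rose by 1.34 ± 0.25, at 9.58, 9.10 and 8.96 in double KO hearts against 7.65, 8.13 and 7.83 in Tbx5 KO hearts.

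In the hypoxia and glycolysis list, 8 of 36 genes rose (22.2%, beside 2.83% of all genes) and 1 fell, with a median of 0.19. The count of rises was 2 without Tbx5 KO replicate 1 or 2 or double KO replicate 2, 3 without double KO replicate 3 and 5 without double KO replicate 1. Kdm3a, a histone demethylase induced by low oxygen, kept its call under the alternatives tried and rose by 0.94 ± 0.17, at 12.03, 12.09 and 12.06 in double KO hearts against 11.07, 10.97 and 11.33 in Tbx5 KO hearts. Pfkfb3, a regulator of glycolysis (1.02 ± 0.25), was lost without Tbx5 KO replicate 1 or 2 or double KO replicate 3 (adjusted p up to 0.0655). Hif1a, the gene of the oxygen-regulated factor itself, was the 1 gene that fell (0.40 ± 0.09 lower) and was named after its values were seen.

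**Figure D3:**
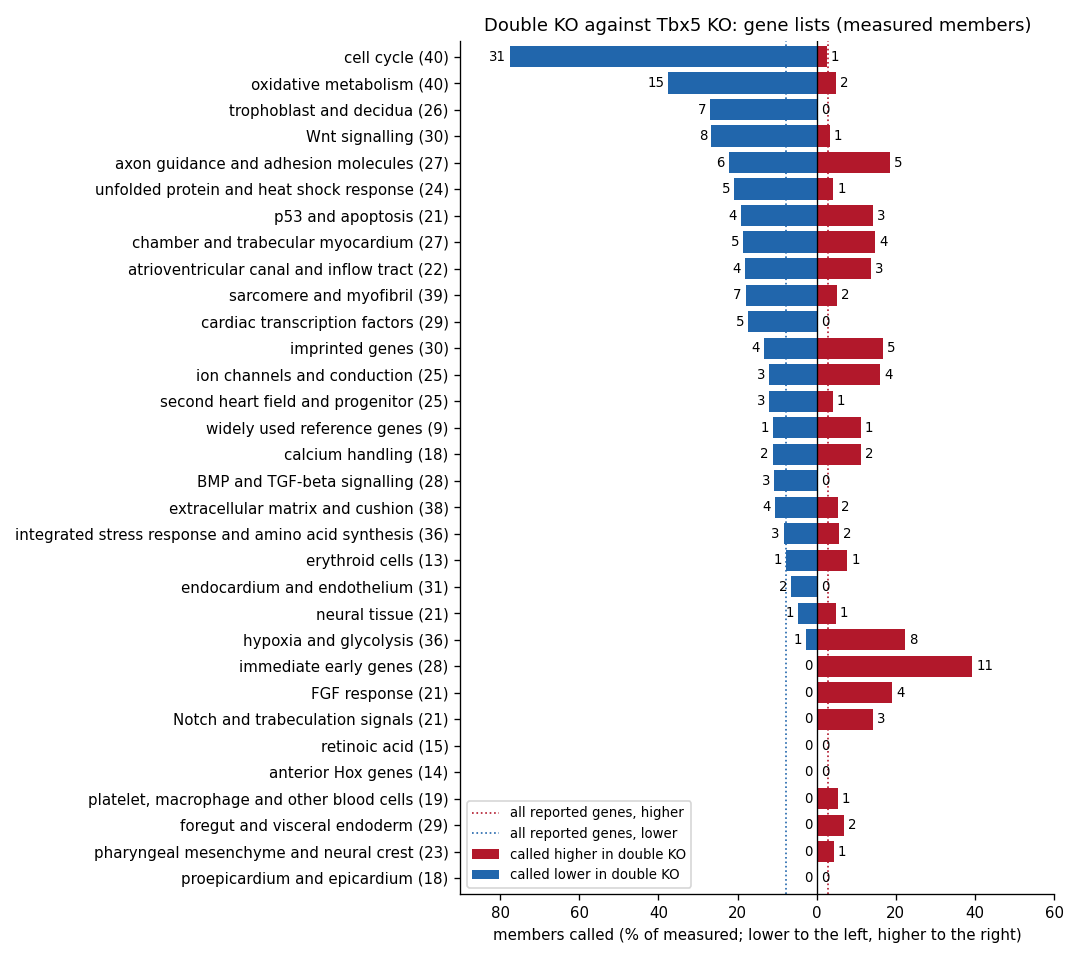
Share of the measured genes of each list that was called lower (left) or higher (right) in double KO hearts relative to Tbx5 KO hearts, with the number of genes at each bar and the list size in brackets. Dotted lines mark the shares over all 19187 genes, 7.8% lower and 2.83% higher.

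Several imprinted genes were among the largest rises and falls. Of 30 imprinted genes, 5 rose (16.7%, beside 2.83% of all genes) and 4 fell (13.3%, beside 7.8%), with a median of -0.05. Igf2r, the maternally expressed receptor that clears IGF2, read 13.24, 13.17 and 13.17 in double KO hearts, against 10.62, 10.18 and 10.44 in Tbx5 KO hearts, and rose by 2.78 ± 0.47 (limma adjusted p = 0.00259). Grb10, a maternally expressed adaptor that restrains growth factor receptors, read 12.88, 12.80 and 11.80 in double KO hearts, against 9.48, 9.03 and 9.81 in Tbx5 KO hearts, and rose by 3.05 ± 0.84 (limma adjusted p = 0.0345). Ddc, the decarboxylase gene next to Grb10 whose heart form is expressed from the paternal copy in mouse, averaged 9.51 ± 0.44 in double KO hearts, against 12.22 ± 0.10 in Tbx5 KO hearts (SD, n = 3 each), without overlap, and fell by 2.71 ± 0.25 (limma adjusted p = 6.24e-05).

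Cdkn1c, maternally expressed, read 12.76, 12.66 and 12.81 in double KO hearts, against 10.05, 10.29 and 10.15 in Tbx5 KO hearts, a rise of 2.58 ± 0.64. Zim1, a maternally expressed zinc finger gene, read 9.73, 9.52 and 9.24 in double KO hearts, against 7.39, 7.03 and 7.28 in Tbx5 KO hearts, a rise of 2.26 ± 0.58. The fifth gene that rose was Dlk1 and the other genes that fell were Sgce, Ndn and Airn, all 4 known as paternally expressed and named after their values were seen. In each of these genes the double KO and Tbx5 KO arrays did not overlap, as in 2012 of all 2040 called genes.

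The WT arrays disagreed among themselves for 4 of these genes. Grb10 read 8.56, 8.29 and 12.65 on the 3 WT arrays, Igf2r 10.30, 10.67 and 12.84, Zim1 7.06, 7.11 and 10.07, and Cdkn1c 12.74, 9.37 and 12.66. For these 4, single WT arrays lay near the Tbx5 KO level and others near the double KO level. The standard errors of their changes come from all 4 groups and so include this WT spread. For Cdkn1c the SD was 1.92 on WT arrays, against 0.08 on double KO and 0.12 on Tbx5 KO arrays. The SDs in the same order were 2.44, 0.60 and 0.39 for Grb10, and 1.72, 0.25 and 0.18 for Zim1. Ddc differed less among the WT arrays, at 10.67, 11.06 and 10.03. The Grb10 and Zim1 calls were lost without double KO replicate 1 or 2 or any Tbx5 KO array (adjusted p up to 0.113 and 0.0774), and the Cdkn1c call without double KO replicate 1 or 2 or Tbx5 KO replicate 1 or 3 (up to 0.0672). Without any 1 of those 5 arrays, 1 or 2 imprinted genes rose and 2 fell, and after quantile normalization again 2 fell. Igf2r and Ddc kept their calls under every alternative tried.

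**Figure D4:**
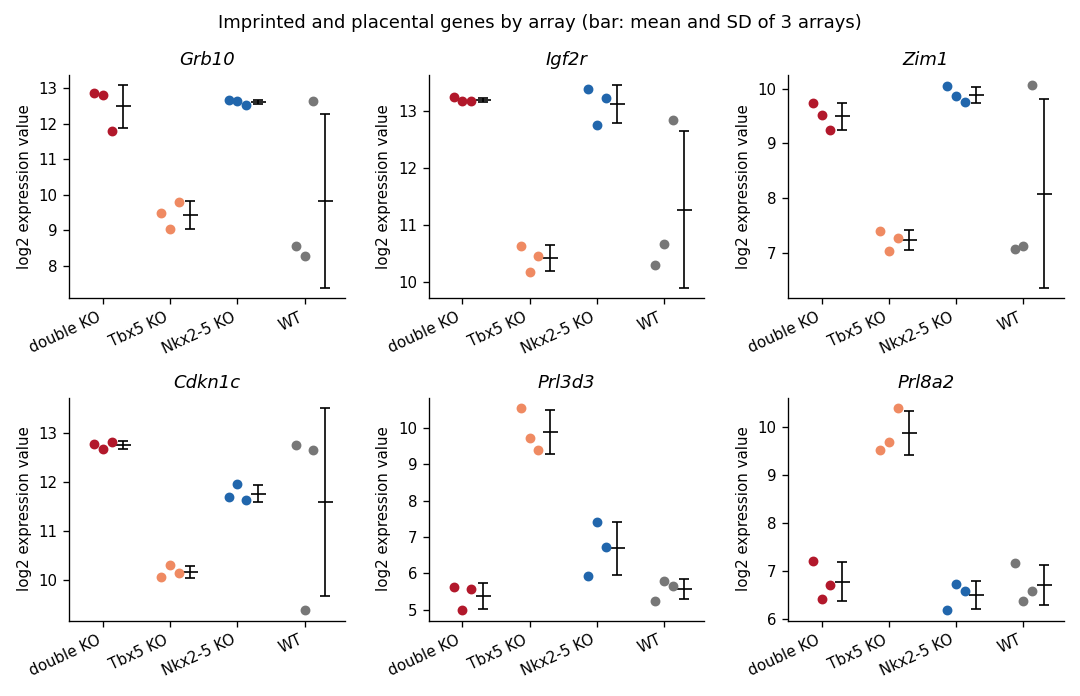
Deposited log2 expression values of 4 imprinted and 2 placental genes on each of the 12 arrays, with the mean and SD of each group of 3. The WT arrays spread from 8.29 to 12.65 for Grb10, and Prl3d3 and Prl8a2 were high on the 3 Tbx5 KO arrays alone.

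Genes best known from the placenta included the largest falls of the named genes. Of 26 measured genes of trophoblast and decidua, 7 fell (26.9%, beside 7.8% of all genes), Hand1 among them, and 0 rose, with a median of -0.02. Prl3d3, a placental lactogen gene of trophoblast giant cells, read 5.61, 4.98 and 5.57 on double KO arrays, against 10.56, 9.71 and 9.40 on Tbx5 KO arrays. It fell by 4.50 ± 0.35 (22.7-fold, limma adjusted p = 2.51e-05). The Nkx2-5 KO arrays read 5.94, 7.40 and 6.72 and the WT arrays 5.25, 5.79 and 5.67, so that the Tbx5 KO arrays alone were high.

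Erv3, an endogenous retroviral sequence, read 7.65, 7.33 and 7.24 in double KO hearts, against 10.43, 10.94 and 11.27 in Tbx5 KO hearts, and fell by 3.48 ± 0.19. The decidual prolactin relative Prl8a2 read 7.21, 6.43 and 6.71 in double KO hearts, against 9.52, 9.69 and 10.39 in Tbx5 KO hearts, and fell by 3.08 ± 0.27. Prl2c5 and Prl7a1, also of the prolactin family, fell by 2.19 ± 0.31 and 1.98 ± 0.17. Prolactin family genes are close copies of each other, so that probe sets may share signal. Tpbpa, the spongiotrophoblast marker, stayed at the dim end at 5.62, 5.66 and 5.72 in double KO hearts against 5.78, 5.56 and 5.46 in Tbx5 KO hearts. The mean of the list was 7.18 to 7.22 on double KO arrays, against 7.75 to 7.77 on Tbx5 KO arrays, 7.15 to 7.19 on Nkx2-5 KO arrays and 7.01 to 7.10 on WT arrays. Whether carried-over tissue took part in these or in other falls was not tested.

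Other large falls were in genes of varied function. Alcam, a cell adhesion molecule that marks early heart muscle in mouse, read 9.49, 8.76 and 9.38 in double KO hearts, against 12.53, 12.39 and 12.15 in Tbx5 KO hearts, and fell by 3.15 ± 0.17 (8.86-fold, limma adjusted p = 1.84e-06). Tlcd4, which encodes a membrane protein with a TLC domain, fell by 3.35 ± 0.47, and Plppr5, a lipid phosphatase relative, fell by 2.74 ± 0.27. Plac8, a small cysteine-rich protein, read 7.76, 8.02 and 8.24 in double KO hearts, against 10.90, 10.46 and 10.66 in Tbx5 KO hearts, and fell by 2.66 ± 0.25. S100a6, a calcium-binding protein, fell by 2.65 ± 0.29. These 5 calls held under every alternative tried.

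Large rises outside the lists were those of Rxfp1, the relaxin receptor, by 2.42 ± 0.31, and Prm1, a protamine gene, by 2.30 ± 0.27. Rxfp1 read 9.82, 9.75 and 8.89 in double KO hearts, against 6.76, 6.86 and 7.58 in Tbx5 KO hearts. Ly96, a co-receptor of TLR4, rose by 2.21 ± 0.42 and Frzb, a secreted Wnt antagonist, by 2.04 ± 0.49, a call that was lost without double KO replicate 3 or Tbx5 KO replicate 3 (adjusted p up to 0.0734). The histone genes H2bc4 and H2bc8 rose by 2.15 ± 0.32 and 1.98 ± 0.30. Histone H2B genes are close copies of each other, so that their probe sets may share signal.

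Lists for cell types other than muscle had 0 to 2 genes called in each direction, the placental list apart. Of 31 endocardial and endothelial genes 2 fell (6.45%, beside 7.8% of all genes), Clec14a, an endothelial lectin (1.02 ± 0.18 lower), and Npr3, a natriuretic peptide clearance receptor of endocardium (0.71 ± 0.19 lower). The Npr3 call was lost after quantile normalization again and without double KO replicate 1 or 2 or Tbx5 KO replicate 2 or 3 (adjusted p up to 0.102). The defining markers Pecam1, Cdh5 and Nfatc1 were not called.

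Of 13 erythroid genes 1 fell (7.69%, beside 7.8% of all genes) and 1 rose, with 0 to 3 lower and 0 or 1 higher under the alternatives tried. Embryonic globin Hba-x read 11.56, 10.75 and 12.45 in double KO hearts, against 13.08, 13.03 and 13.03 in Tbx5 KO hearts, and fell by 1.46 ± 0.40, a call that was lost after quantile normalization again and without double KO replicate 1 or 2 or any Tbx5 KO array (adjusted p up to 0.151). Its relatives Hbb-bh1 (-1.54 ± 0.56) and Hbb-y (-0.77 ± 0.28) were not called. The list mean was 9.06 to 9.51 in double KO hearts, against 9.59 to 9.76 in Tbx5 KO hearts, and the part of blood in the results was not tested.

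Of 29 endoderm genes 2 rose (6.90%, beside 2.83% of all genes; 0 to 3 under the alternatives tried), and the lowest list mean of a double KO array, 8.59, lay above the highest of a Tbx5 KO array, 8.47. Of 23 pharyngeal and neural crest genes 1 rose (4.35%, near the 2.83% of all genes) and 0 fell. The list means were 8.25, 8.31 and 8.35 in double KO hearts, against 8.19, 8.21 and 8.16 in Tbx5 KO hearts. Among 21 neural genes 1 rose (4.76%, near the 2.83% of all genes) and 1 fell (4.76%, beside 7.8%). The riser was Pax6, an eye and neural factor (0.87 ± 0.16), at 9.32, 9.20 and 9.28 in double KO hearts against 8.25, 8.06 and 8.87 in Tbx5 KO hearts. The neural list means were 7.87, 7.99 and 7.91 in double KO hearts, against 7.79, 7.80 and 7.68 in Tbx5 KO hearts. The means of these 3 lists did not overlap between the groups, and the part of such tissue in the results was not tested. Of 18 proepicardial and epicardial genes and of 14 anterior Hox genes, 0 were called in either direction.

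The same loss with Tbx5 present, Nkx2-5 KO minus WT, shares no array with this comparison. It called 842 genes, 353 higher and 489 lower, but 155 or 329 without Nkx2-5 KO replicate 1 or 3 and 220 or 315 without WT replicate 1 or 3. Of the 2040 genes called in hearts without Tbx5, 1851 (90.7%) had the same sign in hearts with it, beside 66.7% of all genes. Calls in both comparisons numbered 451, which is 22.1% of the calls without Tbx5 and 53.6% of the calls with it, and 445 of them had the same direction. The genes called lower without Tbx5 had a median change of -0.68 there, against -0.32 in hearts with Tbx5. Those called higher had a median of 0.54 without Tbx5, against 0.30 with it. These genes were chosen by the first comparison, so the difference in size was not tested. Across genes, which are not independent replicates, the 2 changes had a Pearson correlation of 0.56.

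**Figure D5:**
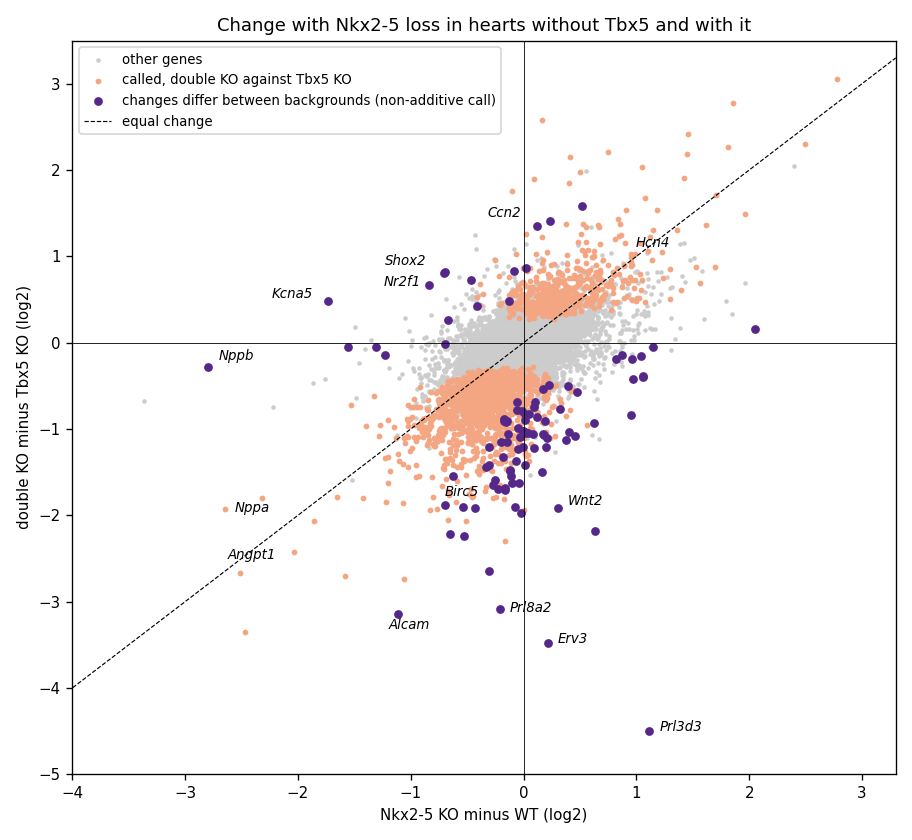
Log2 change of each of 19187 genes with Nkx2-5 loss in hearts without Tbx5 (vertical, double KO minus Tbx5 KO) and with Tbx5 (horizontal, Nkx2-5 KO minus WT). Orange points were called in the first comparison and dark points were called for a difference between the 2 changes, 83 below the dashed line of equal change and 18 above it.

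The difference between the 2 changes, the non-additive term, was tested in the same limma fit and called for 101 genes (0.526%), 18 higher (0.0938%) and 83 lower (0.433%). Without a correction, 1683 genes had p under 0.05. The count was 45 to 70 without any 1 of the arrays other than WT replicate 2, which gave 113, and double KO replicate 3, which gave 251. Of the 83 with a lower term, 74 were called lower in double KO relative to Tbx5 KO hearts, and 68 were not called in Nkx2-5 KO relative to WT hearts. Wnt2 had a term of -2.22 ± 0.27, since it fell only where Tbx5 was absent and read 8.90, 8.93 and 9.30 in Nkx2-5 KO hearts against 8.58, 8.62 and 9.02 in WT hearts. Alcam fell in both settings and had a term of -2.04 ± 0.24. The largest terms of the named genes belonged to Prl3d3 (-5.62 ± 0.49) and Erv3 (-3.69 ± 0.27).

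Among the 18 genes with a higher term, 10 had fallen in Nkx2-5 KO hearts. Kcna5, a potassium channel of atrial muscle, read 8.18, 7.72 and 8.06 in double KO hearts against 7.71, 7.65 and 7.16 in Tbx5 KO hearts, a change of 0.48 ± 0.19 that was not called. In Nkx2-5 KO hearts it read 7.95, 8.09 and 8.62, against 9.82, 9.94 and 10.08 in WT hearts, and the term was 2.21 ± 0.27. Casq2 and Tspan8, a tetraspanin gene, were also called lower in Nkx2-5 KO hearts, with terms of 1.26 ± 0.23 and 1.50 ± 0.17 and no call in hearts without Tbx5. The Casq2 term was lost under 10 of 19 alternatives, among them the omission of double KO replicate 2 or Tbx5 KO replicate 2 or 3 (adjusted p up to 0.0991). For Kcna5, Casq2, Tspan8 and Nppb the Tbx5 KO arrays were already far below the WT arrays.

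In 6 genes the 2 changes were called in opposite directions. Shox2, Nr2f1 and Mab21l2, a developmental regulator of cell fate, rose in double KO relative to Tbx5 KO hearts and fell in Nkx2-5 KO relative to WT hearts. Shox2 changed by 0.82 ± 0.15 in the first comparison and by -0.70 ± 0.15 in the second, and its term was 1.52 ± 0.21 (limma adjusted p = 0.0076). Nr2f1 changed by 0.81 ± 0.16 and by -0.71 ± 0.16, with a term of 1.52 ± 0.23. The Mab21l2 call between double KO and Tbx5 KO hearts was lost without double KO replicate 1 or 3 or Tbx5 KO replicate 2 or 3 (adjusted p up to 0.0794). A2m, a plasma protease inhibitor, Htra1, a secreted serine protease, and the probe set annotated to the microRNA gene Mir20a went the other way, with changes of -0.83 ± 0.25, -0.58 ± 0.11 and -0.93 ± 0.16 in hearts without Tbx5 and of 0.95 ± 0.25, 0.47 ± 0.11 and 0.63 ± 0.16 in hearts with it. These last 3 were named after their values were seen. Hcn4, in contrast, rose in both settings (1.15 ± 0.18 and 0.90 ± 0.18), and its term of 0.25 ± 0.26 was not called.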

How the data were processed

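Hearts of 4 genotypes, with 3 arrays each, were measured on Affymetrix gene arrays. Per the labels' protocols, the steps were RNA isolation (PicoPure), amplification (NuGEN Ovation) and labelling (NuGEN Encore Biotin module). The number of arrays limits the precision. With software not given in the sources used here, values were normalized by the authors, and the deposited table holds them as log2.

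Of 35557 probe sets, 21789 carried exactly 1 gene symbol, 1621 several and 12147 none, and the last 2 kinds were not used. Entrez identifiers of 21698 matched RefSeq. For 999 genes with several probe sets the brightest was kept, which left 19938 genes. In R 4.3.3, the lmFit and eBayes functions of limma 3.58.1 were run on 4 group means over 12 arrays, with 8 residual and 4.51 prior degrees of freedom and no further normalization. P-values were adjusted by Benjamini and Hochberg over all 19938 genes, with a threshold of 0.05, and the non-additive term is the double KO minus Tbx5 KO change less the Nkx2-5 KO minus WT change. The fit was tested on simulated data with independent normal spread and known changes added to the double KO arrays. That checks the code only, since the simulation held no difference in scaling between arrays. Nothing in the labels beyond the word biological says how replicates were bred, so p-values measure the spread between these arrays.

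Genes, lists and the comparison were chosen with earlier results of these data known. Named were both deleted genes, 14 cardiac genes, the 12 largest rises and falls without overlap between groups (clones, predicted genes and small RNAs left out), up to 5 called genes of each of 32 lists, the 8 largest non-additive genes each way and defining cell type markers. Exceptions are marked in the text. The alternatives were quantile normalization again, median-centred arrays, an intensity trend, array weights, only the 6 arrays compared, a replicate block, omission of the dimmest 25% of genes, the mean of a gene's probe sets, and each array left out in turn.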

Additional observations from a re-analysis of the deposited data

Results flagged for a closer look

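For 25 named genes the change with Nkx2-5 loss differed between hearts without Tbx5 and hearts with it, as tested by the non-additive term in the limma fit (double KO minus Tbx5 KO, less Nkx2-5 KO minus WT, on the log2 scale). Groups of 3 arrays were too small to test for single outlying arrays.

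The term was below 0 for 17 genes. These were the placental genes Prl3d3 (-5.62), Prl8a2 (-2.87), Prl2c5 (-2.82) and Prl7a1 (-1.96) and the retroviral sequence Erv3 (-3.69), which were all high on the Tbx5 KO arrays alone. The signalling genes were Wnt2 (-2.22), Lef1 (-1.40), Wnt5a (-1.31) and Bmp5 (-1.05). Genes of division and replication were Dscc1 (-1.71), Fam111a (-1.56), Birc5 (-1.46) and Kif11 (-1.43). The adhesion gene Alcam (-2.04) and the calcium-binding gene S100a6 (-2.35) had large terms, and the calcium channel genes Cacna1d (-1.44) and Cacna2d2 (-1.14) smaller ones. The Cacna2d2 term rested on a higher level in Nkx2-5 KO hearts (12.39, 11.82 and 12.28) than in WT hearts (11.02, 11.32 and 11.27), since the gene was low in both groups without Tbx5.

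The term was above 0 for 8 genes. Nppb (2.52), Kcna5 (2.21), Tspan8 (1.50) and Casq2 (1.26) fell where Tbx5 was present and were not called where it was absent. Shox2 (1.52), Nr2f1 (1.52) and Mab21l2 (1.50) changed in opposite directions. Ccn2 (1.23) rose in hearts without Tbx5 and was not called in hearts with it. Of the 25 calls, 19 held under every alternative that gave them a value. That was 19 alternatives for 14 genes and 18 for 5 dim genes, Prl3d3, Prl2c5, Prl7a1, Shox2 and Tspan8. The 6 that did not were Cacna2d2 (adjusted p up to 0.11), Casq2 (0.0991), S100a6 (0.084), Cacna1d (0.0626), Ccn2 (0.0606) and Fam111a (0.0506, without double KO replicate 2). The causes of these differences were not tested.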

How the results depend on the processing

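Of the 120 named genes called between double KO and Tbx5 KO hearts, 76 kept their call under every alternative that gave them a value (14 for 70 genes, 13 for 6 dim genes), 44 lost it under at least 1 and 0 changed sign. Over all genes, 941 of the 2040 calls (150 higher, 791 lower) held under every alternative. Leaving out 1 array gave 1233 to 2111 calls, 270 to 505 of them higher and 963 to 1606 lower. The low total came without double KO replicate 2, and 1297 genes were called without Tbx5 KO replicate 1. Higher genes numbered 969 when quantile normalized again, 826 under array weights and 331 with only the 6 arrays compared. For Nkx2-5 KO against WT, where alternatives were chosen after seeing the data, array weights gave 2054 calls and leaving out 1 array 155 to 859, with 220 and 315 without WT replicate 1 or 3, and 155 and 329 without Nkx2-5 KO replicate 1 or 3. For the non-additive term, array weights gave 326 and leaving out 1 array 45 (without Nkx2-5 KO replicate 1) to 251 (without double KO replicate 3). The cause was not tested. Values with 3 arrays a group limit what small changes can be called.

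The titles share replicate numbers across genotypes. Correlations of same-numbered deviations were 0.00814, 0.0859 and 0.163 for double KO with Tbx5 KO and 0.0244, 0.208 and 0.193 for Nkx2-5 KO with WT. Differently numbered arrays were not set beside them, so these values cannot decide whether the numbers pair samples. The main fit did not pair them. With a replicate block, 431 genes were higher and 1349 lower in double KO hearts, 1780 in all, 610 were called in Nkx2-5 KO hearts and 57 for the non-additive term.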

Other observations

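Guidance and adhesion genes were called in both directions between double KO and Tbx5 KO hearts. Of 27 measured, 6 fell (22.2%, beside 7.8% of all genes) and 5 rose (18.5%, beside 2.83%), with a median change of 0.12. Under the alternatives tried 5 to 8 fell and 2 to 7 rose. Vcam1, an adhesion receptor of early myocardium, fell by 1.19 ± 0.24, and Nrp1, a semaphorin and VEGF co-receptor, fell by 0.74 ± 0.10. Sema6d, a transmembrane semaphorin that acts in chamber growth in chick, rose by 0.84 ± 0.12 (limma adjusted p = 0.00116). Nrp1 and Sema6d were named after their values were seen. Of 38 matrix and cushion genes 4 fell (10.5%, beside 7.8% of all genes) and 2 rose (5.26%, beside 2.83%), with 2 to 5 lower and 0 to 2 higher under the alternatives tried. Lama1, a laminin chain of basement membranes, fell by 0.77 ± 0.16 and the fibrillar collagen gene Col2a1 by 0.47 ± 0.09. Tnc, the gene of tenascin C, read 11.04, 11.36 and 11.59 in double KO hearts, against 10.26, 10.54 and 10.31 in Tbx5 KO hearts, and rose by 0.96 ± 0.22, a call that was lost without double KO replicate 2 or Tbx5 KO replicate 1 or 3 (adjusted p up to 0.0605).

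Heat shock and unfolded protein genes had 5 of 24 lower (20.8%, beside 7.8% of all genes) and 1 higher (4.17%, beside 2.83%). Between 3 and 6 were lower under the alternatives tried. The mean level of the list lay in the range of the brightest genes, of which 993 of 4797 fell. Hsph1, a large heat shock protein, read 9.88, 9.71 and 10.21 in double KO hearts, against 11.01, 11.04 and 11.18 in Tbx5 KO hearts, and fell by 1.14 ± 0.12 (limma adjusted p = 0.000123). Of 36 genes of the integrated stress response and amino acid synthesis 3 fell (8.33%, near the 7.8% of all genes) and 2 rose (5.56%, beside 2.83%). Under the alternatives tried 2 to 6 fell and 1 to 4 rose. Wars, a tRNA synthetase, fell by 0.73 ± 0.12. Of 21 genes of p53 and apoptosis 4 fell (19%, beside 7.8% of all genes) and 3 rose (14.3%, beside 2.83%). Under the alternatives tried 2 to 5 fell and 1 to 4 rose. The genes of this list included Bcl2, a survival gene that fell by 0.75 ± 0.11, and Gtse1, a cell cycle gene that fell by 0.85 ± 0.13. Of 21 FGF response genes 4 rose (19%, beside 2.83% of all genes), and of 21 Notch genes 3 rose (14.3%), with 0 lower in both lists. Under the alternatives tried 2 to 7 FGF response genes and 0 to 3 Notch genes rose. Apart from Egr1, which is also an immediate early gene, each of these FGF and Notch calls was lost under at least 1 alternative. Of 15 retinoic acid genes 0 were called by limma in either direction. Of 9 widely used reference genes 1 rose (11.1%, beside 2.83% of all genes) and 1 fell (11.1%, beside 7.8%), B2m by 0.54 ± 0.09 and Ppia by -0.37 ± 0.08.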
